A study of Caenorhabditis elegans with 9 samples.

Results

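The neuropeptide receptor genes of the nematode Caenorhabditis elegans were examined as 82 genes of 46926 in the count files. They were chosen by their WormBase symbol alone: 43 genes named npr and a number, 20 named frpr, 16 named dmsr, and the genes ckr-1, ckr-2 and egl-6. Enough reads for a test were present for 77 of them, among 17512 genes tested in all. The 5 genes below that limit were dmsr-10, dmsr-12, dmsr-13, dmsr-14 and dmsr-15, with 31, 53, 39, 26 and 1 reads over all libraries together.

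The samples were whole young adult worms from synchronized populations, with 3 poly(A) RNA libraries for each of 3 genotype labels, WT, UNC5 and PATR1. The series design names a wild type and the mutant unc-5(Cys348*), which carries a stop codon in the netrin receptor gene unc-5. Neither mutant label is tied to that allele by the sample labels, and what PATR1 stands for is not stated. No strain, outcross or culture is given for any group, and nothing says that libraries of 1 group came from separate cultures, so all p-values describe the spread of these libraries, part or all of which may be technical. As all RNA came from whole animals, fewer cells of a type and less RNA per cell cannot be told apart.

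Neuropeptide receptors are mostly G protein-coupled receptors in the cell membrane. Neurons release short peptides from dense core vesicles, and these act on receptors in other neurons, muscles, the gut or the gonad, where heterotrimeric G proteins carry the signal into the cell. In C. elegans the peptides are encoded by flp, nlp and insulin-like genes, and receptors of the npr, frpr and dmsr families bind FMRFamide-like and other amidated peptides that set locomotion, feeding, egg laying, sleep and arousal.

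Reads counted to genes on the strand of the transcript numbered 56713370 to 60642199 in WT, 38673206 to 45911861 in UNC5 and 40657619 to 55150409 in PATR1. Unmapped reads were 0.621% to 0.629% of a WT library, 0.667% to 0.937% of a UNC5 library and 2.86% to 6.02% of a PATR1 library. The gene unc-5 was lower than in WT in both mutant groups, with log2 fold changes of -0.82 ± 0.058 (SE) in UNC5 and -0.40 ± 0.054 in PATR1. The gene patr-1, which the PATR1 label may or may not name, had mean levels of 231 ± 5.03 CPM (SD, n = 3) for WT, 300.2 ± 9.08 for UNC5 and 293 ± 4.77 for PATR1. Levels are given in CPM, the reads of a gene relative to the scaled size of its library. A gene is said to have risen, fallen, or to be higher or lower where the adjusted p of edgeR's quasi-likelihood test (Benjamini-Hochberg over all 17512 genes) was below 0.05.

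All 82 receptor genes are annotated as protein-coding. They lie on all 6 chromosomes, with 4 on I, 12 on II, 6 on III, 11 on IV, 25 on V and 24 on X. The X chromosome thus held 29.3% of them, against 13.7% of all 19978 protein-coding genes. On chromosome V in WBcel235, a pair of physical clusters had gaps under 10 kb between neighbours. The first spans 30.7 kb from 6798151 to 6828886 and holds 8 dmsr genes, dmsr-9 to dmsr-16, each with 1 to 99 reads over all libraries. These include all 5 receptor genes that could not be tested. The second spans 10.4 kb from 8899056 to 8909444 and holds frpr-11, frpr-12 and frpr-13, with 281 to 2351 reads.

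Receptor genes stood at low levels in this whole-body RNA. Per kilobase of exon, the median over the 77 tested genes was 1.33 CPM, against 7.99 CPM over all tested genes. A tested receptor gene had a median of 97 reads per library, and 13 had a mean under 1 CPM in WT. The highest levels per kilobase, averaged over all libraries, were those of npr-5 at 9.66 CPM, npr-28 at 5.67, dmsr-1 at 5.54, frpr-19 at 5.38, frpr-11 at 4.21 and npr-37 at 4.01. npr-5 encodes a receptor for FLP-18 peptides, and dmsr-1 a receptor for FLP-13 peptides that promote sleep after stress. The lowest levels were those of dmsr-9 at 0.192, dmsr-16 at 0.165 and dmsr-11 at 0.162 CPM per kilobase, all from the first cluster.

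**Figure D1:**
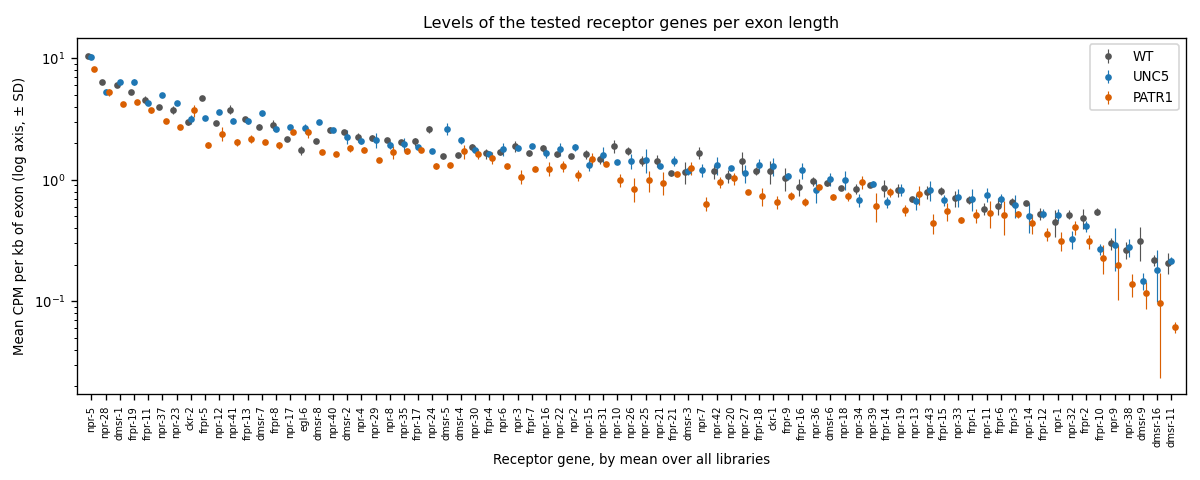
Mean CPM per kilobase of exon (log axis) of the 77 tested receptor genes, ordered by the mean over all libraries; points are group means of WT, UNC5 and PATR1 and bars are ± SD over 3 libraries. npr-5 stood highest in all 3 groups, and the PATR1 points lay below the WT points for most genes.

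Added up, the 82 receptor genes made 233, 239.6 and 244 CPM in the WT libraries. They made 246, 243 and 236 CPM in UNC5, which overlaps WT, and 181, 183 and 182 CPM in PATR1, which lies below every library of the other groups. The group sums were 239 ± 5.85 CPM in WT, 242 ± 5.13 in UNC5 and 182 ± 1.31 in PATR1, so that PATR1 held 76.2% of the WT sum and UNC5 101%. The 5 highest genes of each library made up 26.3% to 28.0% of its sum.

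The comparison of UNC5 with WT asks which receptor genes differ in the group labelled UNC5. Among the 77 tested genes, 13 were higher, 14 were lower and 50 did not pass. Over all tested genes 49.8% were higher, 27% were lower and 76.8% passed in either direction, while 16.9% of the receptor genes were higher and 18.2% lower. The median log2 fold change of the receptor genes was 0.00, with a range of -1.09 to 0.76, while the median over all genes was 0.16. This split changed with the fit: 10 were higher and 24 lower with relative log expression factors, 6 and 29 when only the WT and UNC5 libraries were fitted, and 4 and 28 with no low-count filter. The receptor median stayed 0.13 to 0.19 below the median of all genes in these and all other fits tried. Receptor genes have few reads, and the median SE of a log2 fold change was 0.121 for them and 0.066 for all genes. Among the 9827 tested genes within the receptor genes' range of levels, 38.0% were higher and 32.9% lower, with a median of 0.09.

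By family, 5 of 43 npr genes were higher and 10 lower in UNC5, 3 of 20 frpr genes were higher and 3 lower, and 4 of 11 tested dmsr genes were higher and 1 lower. The 4 dmsr genes that rose were dmsr-4, dmsr-5, dmsr-7 and dmsr-8, a family related to insect myosuppressin receptors. dmsr-5 (chromosome III, 10992044 to 10995256, minus strand) stood at 2.03, 1.96 and 2.14 CPM in WT and at 3.79, 3.07 and 3.501 CPM in UNC5. Each UNC5 library was above each WT library, and the rise was 1.69-fold (log2 0.76 ± 0.10, adjusted p = 1.1e-07). dmsr-8 (chromosome V, 10510443 to 10514371, minus strand) stood at 3.61, 3.95 and 3.84 CPM in WT and at 5.30, 5.33 and 5.62 CPM in UNC5. Its groups did not overlap either, with a rise of 1.43-fold (log2 0.51 ± 0.081, adjusted p = 1.2e-06). dmsr-4 went from 2.07 ± 0.115 to 2.77 ± 0.181 CPM (log2 0.42 ± 0.11, adjusted p = 1.3e-03).

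egl-6 encodes a receptor for FLP-10 and FLP-17 peptides that slows egg laying through the HSN motor neurons. It lies on the plus strand of the X chromosome from 5931122 to 5934532. Its level was 2.80, 2.66 and 3.11 CPM in the WT libraries, 4.48, 4.60 and 3.89 CPM in those of UNC5 and 4.004, 4.38 and 3.63 CPM in PATR1. All 6 mutant libraries were above all 3 WT libraries, and the mutant groups overlapped each other. egl-6 rose 1.51-fold in UNC5 (log2 0.59 ± 0.099, adjusted p = 2.7e-06) and 1.39-fold in PATR1 (log2 0.47 ± 0.099, adjusted p = 5.9e-05). These calls held in all 17 alternative fits of each comparison.

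npr-17, which encodes an opioid-like receptor for peptides of nlp-24, was the other receptor gene higher in both. It stood at 3.14, 3.21 and 3.43 CPM in WT, then 4.20, 4.06 and 4.11 CPM in the UNC5 libraries and 3.78, 3.71 and 3.70 CPM in those of PATR1. Neither mutant group overlapped WT, with log2 fold changes of 0.34 ± 0.087 in UNC5 (adjusted p = 8.7e-04) and 0.19 ± 0.088 in PATR1 (adjusted p = 0.042). The PATR1 call held in 6 of 17 alternatives, with values from 0.07 to 0.22, and was lost without WT replicate 1 (0.15) or 2 (0.17) and without PATR1 replicate 1 (0.18), 2 (0.20) or 3 (0.20).

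The falls in UNC5 were led by frpr-10, dmsr-9, npr-32 and npr-24. frpr-10 (chromosome IV, 7957804 to 7973690, plus strand) dropped from 1.33, 1.46 and 1.27 CPM in WT to 0.738, 0.639 and 0.613 CPM in UNC5, a fall of 2.04-fold (log2 -1.03 ± 0.18, adjusted p = 4.4e-06). Its exons overlap those of csr-1 on the same strand over 17.7% of their length, and reads in that stretch may be left out as ambiguous or come from csr-1. npr-24 went from 3.68, 4.17 and 3.81 CPM to 2.52, 2.58 and 2.58 CPM, with no overlap (log2 -0.60 ± 0.096, adjusted p = 1.5e-06). dmsr-9 and npr-32 had lower levels, 0.342 ± 0.107 and 0.709 ± 0.0586 CPM in WT, and their log2 fold changes were -1.09 ± 0.35 (adjusted p = 6.1e-03) and -0.67 ± 0.22 (adjusted p = 6.2e-03). dmsr-9 reached the limit for testing only through its WT libraries, so a higher WT level was a condition of its being tested. Its UNC5 call was lost without WT replicate 2 (-0.84).

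No receptor gene was higher than WT beyond 2-fold in UNC5, and 2 were lower beyond 2-fold, frpr-10 and dmsr-9, against 7.09% and 13.7% of all genes. Without WT replicate 2, and likewise without UNC5 replicate 3, none was lower beyond 2-fold. Without WT replicate 2 the number lower fell from 14 to 9. By the libraries themselves, 18 receptor genes had every UNC5 library above every WT library and 11 had every one below, against 50.4% and 27.5% of all genes, or 77.9% in either direction.

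The comparison of PATR1 with WT asks the same of the third genotype. Here 54 of the 77 receptor genes were lower, 3 were higher and 20 did not pass, while over all tested genes 44.9% were lower, 38.7% were higher and 83.6% passed in either direction. The share lower was thus 70.1% of the receptor genes. Their median log2 fold change was -0.42, with the middle 50% of genes between -0.61 and -0.25, against -0.11 over all genes. Among the tested genes within the receptor genes' range of levels, 53.8% were lower and 22.8% higher, with a median of -0.38. The falls ran through the families, with 30 of 43 npr, 15 of 20 frpr and 8 of 11 tested dmsr genes lower. Beyond 2-fold, 7 were lower and none was higher, against 10.5% and 6.02% of all genes. Of these 7, dmsr-9, dmsr-11 and dmsr-16 had no PATR1 library past the limit for testing, so a fall was favoured in advance. No overlap of the libraries was seen for 57 genes below WT and 3 above it, against 45.2% and 38.8% of all genes, or 84% in either direction.

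**Figure D2:**
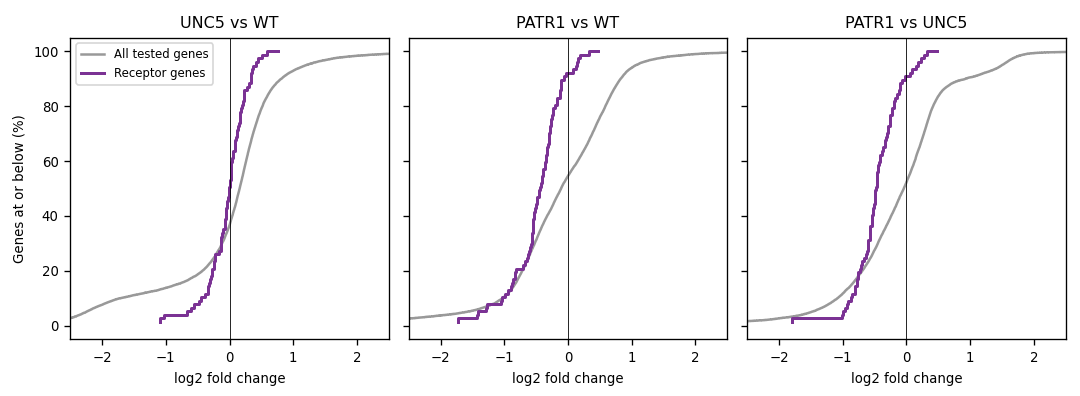
Cumulative share of genes (%) at or below each log2 fold change, for the 77 tested receptor genes and all 17512 tested genes, in each of the 3 comparisons; values beyond ± 2.5 are outside the axis. The receptor curve lay left of the curve of all genes at the median and upper quartile, with medians of 0.00, -0.42 and -0.47 against 0.16, -0.11 and -0.04. At the lower quartile it lay to the right in UNC5 against WT (-0.17 against -0.24). There the curves nearly met in PATR1 against WT (-0.61 against -0.62).

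The 7 genes that fell beyond 2-fold in PATR1 were dmsr-11, dmsr-9, npr-7, frpr-10, frpr-5, npr-26 and dmsr-16. frpr-5 (chromosome V, 13531662 to 13536108, minus strand) had the smallest adjusted p of all receptor genes. It stood at 8.85, 8.47 and 8.85 CPM in WT, then 6.06, 5.87 and 5.93 CPM in the UNC5 libraries and 3.37, 3.69 and 3.72 CPM in those of PATR1. The groups formed 3 separate steps, with falls of 1.47-fold in UNC5 (log2 -0.55 ± 0.069, adjusted p = 1.3e-08) and 2.42-fold in PATR1 (log2 -1.28 ± 0.074, adjusted p = 1.4e-16).

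npr-7 (X chromosome, 9315436 to 9319180, minus strand) was at 2.21, 2.07 and 2.60 CPM in WT, then 1.58, 1.499 and 1.86 CPM in the UNC5 libraries and 0.882, 0.980 and 0.756 CPM in those of PATR1. Again the groups did not overlap, and the log2 fold changes were -0.48 ± 0.13 in UNC5 (adjusted p = 1.3e-03) and -1.41 ± 0.15 in PATR1 (adjusted p = 1.8e-10). npr-26 was at 2.63, 2.99 and 3.08 CPM in WT and at 1.76, 1.24 and 1.21 CPM in PATR1, a fall of 2.07-fold (log2 -1.05 ± 0.13, adjusted p = 1.2e-08). The UNC5 libraries of npr-26, at 2.22, 2.75 and 2.19 CPM, overlapped WT, and their lower call (log2 -0.29 ± 0.12, adjusted p = 0.031) held in 13 of 17 alternatives. It was lost without WT replicate 2 (-0.27) or 3 (-0.25) and without UNC5 replicate 1 (-0.24) or 3 (-0.22).

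The dmsr genes of the first cluster rested on few reads. dmsr-11 had 20, 15 and 15 reads in the WT libraries, 12, 11 and 13 in UNC5 and 4, 3 and 4 in PATR1, and its log2 fold change in PATR1 was -1.73 ± 0.40 (adjusted p = 2.0e-04). dmsr-9 fell by 1.43 ± 0.36 on the log2 scale (adjusted p = 6.4e-04). dmsr-16, with a log2 fold change of -1.04 ± 0.45 (adjusted p = 0.034), kept its call in 10 of 15 alternatives and lost it without WT replicate 1 (-0.98) or 2 (-1.04) and without PATR1 replicate 1 (-0.97) or 2 (-0.67). dmsr-9, dmsr-11 and dmsr-16 had no PATR1 library past the limit for testing, so they were tested through the groups where they are higher.

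ckr-2 was the third receptor gene that rose in PATR1. With ckr-1 it encodes a receptor related to the cholecystokinin receptors of vertebrates, and both respond to NLP-12 peptides, which act in locomotion. ckr-2 (chromosome III, 2009299 to 2021595, minus strand) was at 5.67, 6.19 and 6.12 CPM in WT, then 6.82, 5.78 and 6.56 CPM in the UNC5 libraries and 6.58, 7.66 and 8.26 CPM in those of PATR1. Its PATR1 libraries lay above all WT libraries (log2 0.33 ± 0.080, adjusted p = 3.8e-04), while UNC5 overlapped WT (0.09 ± 0.083, adjusted p = 0.32). ckr-1 (chromosome I, 6687349 to 6691671, minus strand) was at 2.06, 1.39 and 1.57 CPM in WT, then 1.73, 2.21 and 1.60 CPM in the UNC5 libraries and 0.860, 0.876 and 1.06 CPM in those of PATR1. It was lower in PATR1, with no overlap (log2 -0.83 ± 0.17, adjusted p = 4.7e-05), and did not pass in UNC5 (0.14 ± 0.15, adjusted p = 0.39). The genes of this receptor pair therefore moved in opposite directions in PATR1.

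**Figure D3:**
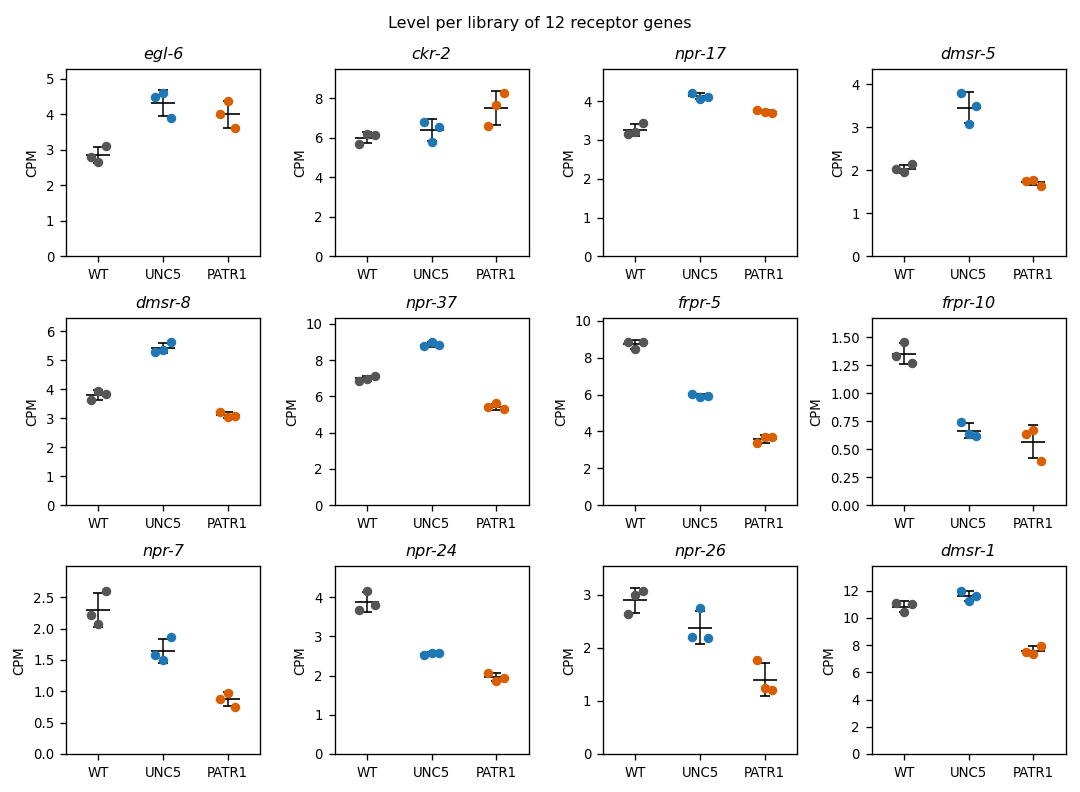
CPM per library (axis from 0) of 12 receptor genes in WT, UNC5 and PATR1; points are libraries and bars the mean ± SD (n = 3). egl-6 was higher in both mutant groups, ckr-2 in PATR1, and dmsr-5 in UNC5, while frpr-5 and npr-7 stepped down from WT over UNC5 to PATR1.

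npr-1, npr-4 and npr-5 encode receptors for FLP-18 peptides, and npr-1 is known for setting social feeding and oxygen responses. npr-5 (chromosome V, 276985 to 281716, minus strand) was at 15.6, 16.8 and 16.5 CPM in WT, then 16.6, 16.8 and 15.2 CPM in the UNC5 libraries and 12.2, 13.4 and 12.7 CPM in those of PATR1. Its UNC5 libraries overlapped WT (-0.01 ± 0.054, adjusted p = 0.82) and its PATR1 libraries lay below (-0.36 ± 0.055, adjusted p = 5.9e-07). npr-4 went from 4.64 ± 0.366 to 3.67 ± 0.171 CPM in PATR1 (log2 -0.34 ± 0.087, adjusted p = 7.0e-04), and was at 4.30 ± 0.204 CPM in UNC5. npr-1 (X chromosome, 4767152 to 4769985, minus strand) stood at 0.523, 0.853 and 0.635 CPM in WT, then 0.764, 0.688 and 0.875 CPM in the UNC5 libraries and 0.407, 0.438 and 0.567 CPM in those of PATR1, from 17 to 51 reads. Its PATR1 and WT libraries overlapped, and its call (log2 -0.49 ± 0.23, adjusted p = 0.047) held in 10 of 16 alternatives. It was lost without WT replicate 2 (-0.29), UNC5 replicate 1 (-0.48), or PATR1 replicate 1 (-0.39) or 2 (-0.44).

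dmsr-1 (chromosome V, 11438764 to 11441638, plus strand) was at 11.1, 10.4 and 10.99 CPM in WT, then 11.99, 11.3 and 11.6 CPM in the UNC5 libraries and 7.49, 7.35 and 7.97 CPM in those of PATR1. The PATR1 libraries lay below all the others (log2 -0.51 ± 0.062, adjusted p = 7.1e-09). Of the other highly expressed receptor genes, npr-28 was lower in both mutant groups (-0.27 ± 0.059 and -0.29 ± 0.058) and frpr-11 was lower in PATR1 (-0.27 ± 0.080, adjusted p = 2.2e-03). npr-38, one of the lowest, went from 0.455 ± 0.0731 to 0.239 ± 0.0507 CPM in PATR1 (log2 -0.90 ± 0.28, adjusted p = 3.7e-03).

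UNC5 and PATR1 were compared with the same 3 WT libraries, so their calls are set side by side without a test of their overlap. Of the 77 genes, 10 were lower in both: dmsr-9, frpr-10, npr-24, frpr-5, npr-7, npr-10, npr-27, npr-41, npr-26 and npr-28. Of these 10, dmsr-9 reached the limit for testing only through its WT libraries. npr-10 went from 3.18 ± 0.382 CPM in WT to 2.34 ± 0.0202 in UNC5 and 1.68 ± 0.217 in PATR1, and npr-24 reached 1.95 ± 0.101 CPM in PATR1 (log2 -0.99 ± 0.10, adjusted p = 1.2e-10). egl-6 and npr-17 were higher in both. A further 36 were lower in PATR1 and did not pass in UNC5, 13 passed in neither, and 8 were higher in UNC5 and lower in PATR1. Over all tested genes 22.9% were lower in both, 31.5% higher in both and 11.1% higher in UNC5 and lower in PATR1, against 13%, 2.6% and 10.4% of the receptor genes. Genes lower in PATR1 that did not pass in UNC5 made up 10.8% of all genes and 46.8% of the receptor genes, and genes passing in neither 6.71% and 16.9%. Receptor genes had the larger SEs, with a median of 0.121 against 0.066 for UNC5 against WT. These shares were not computed for genes within their range of levels. The remaining 8 were ckr-2, the genes dmsr-4, dmsr-5 and frpr-21, which were higher in UNC5 and did not pass in PATR1, and npr-15, npr-32, npr-34 and frpr-14, which were lower in UNC5 and did not pass in PATR1.

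**Figure D4:**
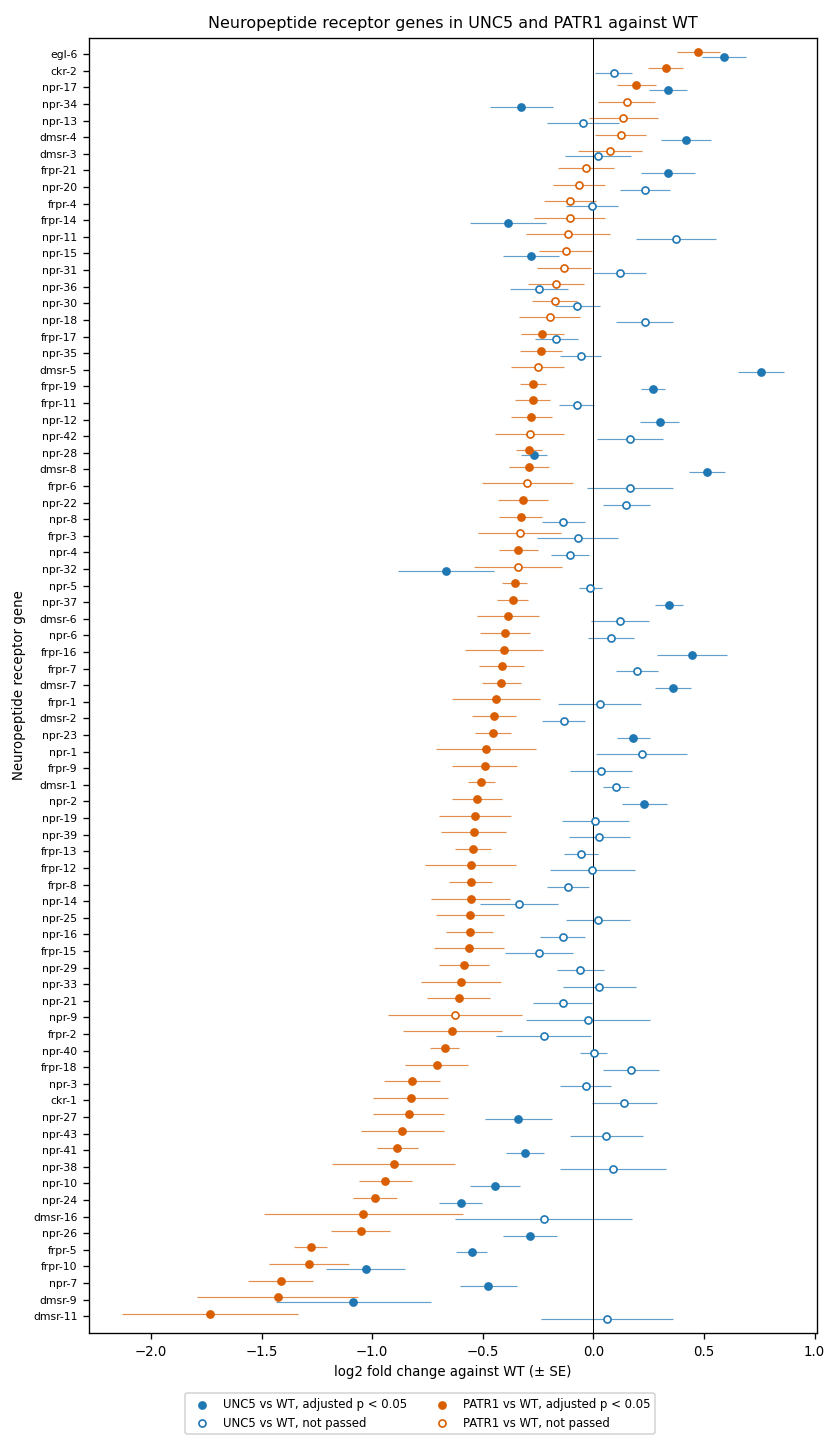
Log2 fold change against WT (± SE) of each tested receptor gene in UNC5 (blue) and PATR1 (orange), ordered by PATR1; filled points passed an adjusted p below 0.05. Most orange points lay left of 0, with 54 lower and 3 higher, and the blue points lay on both sides, with 13 higher and 14 lower, a split that shifted to 10 and 24 with relative log expression factors.

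The 8 genes with opposite calls were dmsr-8, dmsr-7, npr-37, frpr-19, npr-12, npr-23, npr-2 and frpr-16. npr-37 (chromosome IV, 461199 to 481167, minus strand) was at 6.85, 6.98 and 7.14 CPM in WT, then 8.76, 8.995 and 8.82 CPM in the UNC5 libraries and 5.41, 5.62 and 5.29 CPM in those of PATR1. The 3 groups were fully apart, with a rise of 0.34 ± 0.065 in UNC5 and a fall of 0.37 ± 0.070 in PATR1 on the log2 scale (adjusted p = 1.9e-05 and 1.7e-05). dmsr-8 was at 3.21, 3.04 and 3.06 CPM in PATR1, below every WT library (log2 -0.29 ± 0.089, adjusted p = 3.5e-03). For npr-37 and dmsr-8 both calls held in all 17 alternatives. They held in 16 for dmsr-7, 15 for frpr-19, 13 for npr-12, 8 each for npr-23 and frpr-16, and 6 for npr-2.

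The direct comparison of PATR1 with UNC5 leaves out WT. Of the 77 receptor genes, 51 were lower in PATR1, 2 were higher and 24 did not pass, while over all tested genes 40.9% were lower, 37.8% were higher and 78.7% passed in either direction. The median log2 difference was -0.47, against -0.04 over all genes. Among tested genes within the receptor genes' range of levels, 45.3% were lower and 27.2% higher, with a median of -0.23. All 8 genes with opposite calls were lower in PATR1 than in UNC5, by 0.54 to 0.85 on the log2 scale. Their selection as higher in UNC5 and lower in PATR1 had set that direction beforehand. dmsr-5 and dmsr-11 were lower beyond 2-fold, by 1.01 ± 0.12 (adjusted p = 2.3e-09) and 1.79 ± 0.42 (adjusted p = 3.0e-04) on the log2 scale, of which dmsr-11 was tested only through its WT and UNC5 libraries. No receptor gene was higher beyond 2-fold, against 11.5% and 9.46% of all genes. The mutant libraries did not overlap for 52 receptor genes below UNC5 and 2 above it, against 41.3% and 38.3% of all genes, or 79.5% in either direction. The number lower beyond 2-fold was 5 without PATR1 replicate 1 and 4 without PATR1 replicate 3 or UNC5 replicate 2. dmsr-5 in PATR1, at 1.74, 1.78 and 1.64 CPM, was below WT in every library as well, but that difference missed the threshold (-0.25 ± 0.12, adjusted p = 0.052).

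The genes higher in PATR1 than in UNC5 were npr-34 (0.48 ± 0.15, adjusted p = 3.9e-03) and ckr-2 (0.24 ± 0.084, adjusted p = 0.012). npr-34 was at 1.502, 1.64 and 1.82 CPM in WT, then 1.45, 1.38 and 1.16 CPM in the UNC5 libraries and 1.79, 2.11 and 1.68 CPM in those of PATR1, so that the mutant groups did not overlap each other. The ckr-2 call was lost without UNC5 replicate 2 (0.17) or PATR1 replicate 3 (0.16).

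A list of 14 peptide genes reported to act on these receptors was chosen, and it does not hold every such gene. Of these 14, 11 were higher in UNC5, nlp-24 was lower and 2 did not pass, with a median log2 fold change of 0.55. In PATR1 13 were lower, 1 did not pass, and the median was -0.58. Over all tested genes 49.8% were higher in UNC5 and 44.9% were lower in PATR1. flp-18 went from 18.9 ± 0.717 CPM in WT to 42.9 ± 3.14 in UNC5 and 13.2 ± 0.563 in PATR1 (log2 1.18 ± 0.049 and -0.52 ± 0.057), while its receptor genes npr-1, npr-4 and npr-5 did not pass in UNC5. nlp-12 rose from 8.93 ± 0.776 to 20.3 ± 0.280 CPM in UNC5 and fell to 6.17 ± 0.373 in PATR1, while ckr-1 and ckr-2 did not pass in UNC5. flp-15 rose from 9.26 ± 0.879 to 19.6 ± 0.660 CPM in UNC5, while npr-3, which encodes its receptor, had a log2 fold change of -0.03 ± 0.12 there and of -0.82 ± 0.13 in PATR1 (adjusted p = 6.8e-07). nlp-24 fell in both, from 91.9 ± 3.93 to 51.0 ± 1.47 and 35.7 ± 2.08 CPM, while npr-17 was higher in both. flp-17 and egl-6 were both higher in UNC5 (0.51 ± 0.056 and 0.59 ± 0.099), and in PATR1 flp-17 was lower (-0.13 ± 0.059, adjusted p = 0.046) while egl-6 was higher.

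**Figure D5:**
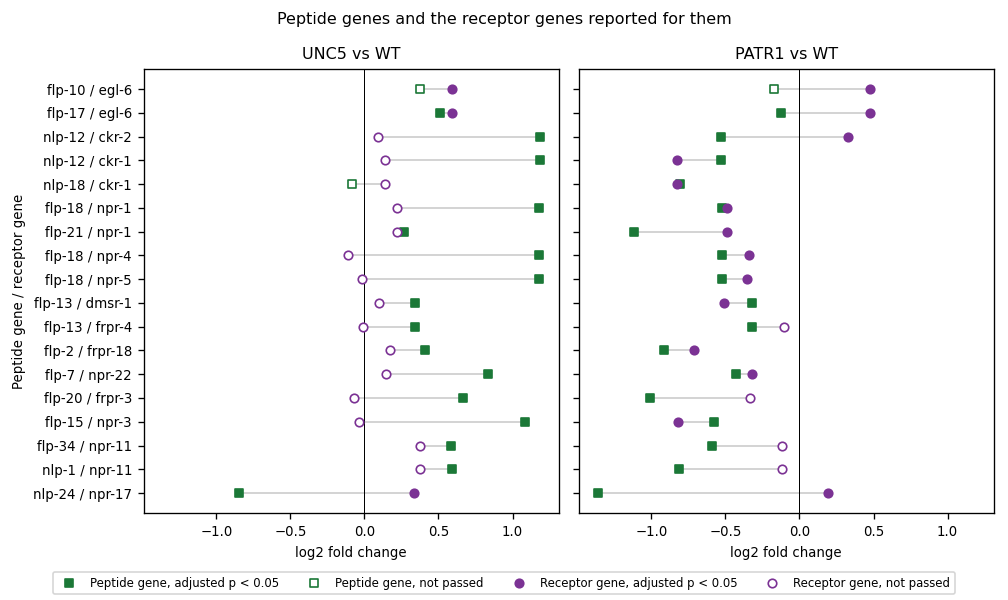
Log2 fold change of peptide genes (squares) and of receptor genes reported for them (circles) in UNC5 (left) and PATR1 (right) against WT; filled symbols passed an adjusted p below 0.05. In UNC5 most squares lay right of their circles, and in PATR1 both mostly lay left of 0, apart from egl-6, ckr-2 and npr-17.

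For other pairs the values were mixed. frpr-18, whose product responds to FLP-2 peptides in arousal, was lower in PATR1 (-0.71 ± 0.14, adjusted p = 3.8e-05), as was flp-2 (-0.92 ± 0.083). flp-13 was lower in PATR1 (-0.32 ± 0.069), as was dmsr-1, while frpr-4, the other receptor gene reported for it, did not pass (-0.10 ± 0.12, adjusted p = 0.41). npr-11, whose product has been reported to respond to peptides of nlp-1 and flp-34, passed in neither mutant (0.37 ± 0.18 in UNC5 and -0.12 ± 0.19 in PATR1), while both peptide genes rose in UNC5 and fell in PATR1.

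Peptide receptor genes with other names were listed beside them. Of 24 tested, 18 were lower and 1 was higher in PATR1 (median -0.46), and 4 were lower and 3 higher in UNC5 (median -0.10). They include fshr-1, related to glycoprotein hormone receptors, at 50.8 ± 2.49, 40.6 ± 1.53 and 34.4 ± 0.553 CPM in WT, UNC5 and PATR1, and pdfr-1, which encodes the receptor for pigment dispersing factor peptides, at 23.9 ± 1.20, 31.9 ± 1.01 and 21.9 ± 0.0486 CPM. Of 42 tested genes of heterotrimeric G protein signalling, 23 were lower and 6 higher in PATR1 (median -0.32), and 8 were lower and 21 higher in UNC5 (median 0.13), while of all genes 44.9% were lower in PATR1 and 49.8% higher in UNC5. kin-1, the catalytic subunit of protein kinase A, went from 182 ± 7.70 CPM in WT to 109 ± 6.32 in PATR1, and acy-1, an adenylyl cyclase gene, from 29.99 ± 0.714 to 17.7 ± 1.08. Among the 6 that were higher, gpa-16 went from 51.9 ± 2.67 CPM in WT to 80.7 ± 3.29 in PATR1. The 7 genes of peptide processing and dense core vesicle release were all lower in PATR1 (median -0.62), and in UNC5 3 were higher and 4 did not pass. ida-1, a dense core vesicle protein gene, went from 94.1 ± 2.05 to 53.7 ± 2.18 CPM in PATR1.

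Other tissue markers moved with the PATR1 group as well. Of 17 pan-neuronal genes, 11 were lower and 5 higher in PATR1 (median -0.46), and 1 was lower and 13 higher in UNC5 (median 0.17). Their summed level was 1379 to 1420 CPM in WT, 1682 to 1729 in UNC5 and 1640 to 1672 in PATR1, a sum that tbb-1, a tubulin gene at 597 ± 5.59 CPM in WT and 786 ± 9.33 in PATR1, leads. Germline and oocyte markers were higher in PATR1 for 10 of 10 genes (median 0.92), with sums of 3296 to 3419 CPM in WT, 4390 to 4494 in UNC5 and 6023 to 6197 in PATR1. Body wall muscle markers were lower in PATR1 for 7 of 8 genes and higher for 1 (median -0.39). Intestine markers were lower for 6 of 9 and higher for 2, and hypodermis markers lower for 5 of 8 and higher for 1. Sperm markers were lower for 9 of 9. Medians for intestine, hypodermis and sperm were -0.49, -0.39 and -0.55. The intestine sums overlapped, at 7338 to 8002 CPM in WT and 7275 to 7469 in PATR1, while the muscle, hypodermis and sperm sums lay below WT. Of all tested genes 44.9% were lower and 38.7% higher in PATR1. In UNC5 the 9 sperm markers fell by a median of 2.30 on the log2 scale. No marker was at 0 in any group. The part of these shifts in the receptor results was not tested.

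On the X chromosome, 19 of 24 receptor genes were lower in PATR1 and egl-6 was higher (median -0.51). Of all tested genes on X, 58.0% were lower, with a median of -0.29. On the autosomes 35 of 53 receptor genes were lower (median -0.39), against 42.7% of all autosomal genes (median -0.05). In UNC5, 4 of the 24 receptor genes on X were lower and egl-6 was higher, with a median of -0.07, while 24.7% of all tested genes on X were lower and 43.1% higher, with a median of 0.11.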

How the data were processed

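The deposited files hold, per library, whole-number read counts per gene without strand and for each strand, made by the authors with STAR 2.7.11b on WBcel235 after FastQC 0.11.9 and cutadapt 3.5, per the submitters' processing notes. The design text names the annotation release as WS288, and no normalization is applied in the files. The counts taken are those of the reverse strand, with 41.9 to 57.1 times as many reads as the forward strand. Rows for reads that were unmapped, in several places, in no gene or ambiguous were kept out, at up to 6.02%, 4.96%, 1.32% and 1.23% of a library. Symbols and positions came from the Ensembl 115 annotation of WBcel235, which held 46918 of 46926 identifiers. All 82 receptor symbols were found, as were all but 4 of 153 symbols in the other lists (nmur-4, gnrr-8, capr-1 and seb-2).

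Counts were fitted in edgeR 4.0.16 (R 4.3.3, limma 3.58.1) with the default expression filter (minimum count 10, here 0.216 CPM in at least 3 libraries), TMM factors (0.954 to 1.04) and a robust quasi-likelihood model of all 9 libraries. The contrasts were UNC5 against WT, PATR1 against WT and PATR1 against UNC5, each with Benjamini-Hochberg adjustment over 17512 genes. An SE is the log2 fold change divided by the square root of its F statistic. The common biological coefficient of variation was 3.14%. CPM per kilobase divides by the union of a gene's exons. No library pair of a group agreed within counting error (mean chi-square per gene 3.01 to 5.62). With 3 libraries against 3, a permutation test of 1 gene cannot give p below 0.1 and was not used. On simulated data for UNC5 against WT with 17512 genes, 43 of 50 genes changed 1.5-fold, 47 of 50 changed 2-fold, 50 of 50 changed 3-fold and 45 of 50 lowered by a factor of 0.5 were recovered, and 10 unchanged genes passed. Every simulated gene had the same dispersion, few genes were changed, and these came from all levels. The recovered shares therefore do not describe the receptor genes, which have few reads.

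The members, lists, tests and alternatives were chosen with earlier results of these data known. The text names the 8 largest passing rises and falls against WT in each mutant group, genes called in opposite directions, the 6 highest and 3 lowest levels per kilobase, the 3 largest rises and falls between the mutant groups, egl-6, ckr-1, ckr-2, npr-1, npr-4 and npr-5, and up to 4 genes of each list. Receptor genes paired with a peptide gene, and other members named to account for a count, were added after their values were seen. Alternatives were library sizes alone, relative log expression factors, no filter, at least 1 CPM in at least 3 libraries, DESeq2 1.42.0, unstranded counts, the 6 libraries of a comparison alone, the replicate number as a block, and leaving out each library. Tables and plots were made in Python 3.11.15 (pandas 2.3.3, numpy 2.4.6, matplotlib 3.10.9). Sequences were not analysed here.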

Additional observations from a re-analysis of the deposited data

Results flagged for a closer look

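For 8 receptor genes, 10.4% of those tested, UNC5 was higher and PATR1 lower than WT, against 11.1% of all tested genes. The direct test between the mutant groups passed for each, in a direction that their selection had set, so it adds no separate support. The log2 fold changes of PATR1 against UNC5 were -0.85 for frpr-16, -0.80 for dmsr-8, -0.77 for dmsr-7, -0.76 for npr-2, -0.71 for npr-37, -0.63 for npr-23, -0.58 for npr-12 and -0.54 for frpr-19, by edgeR's quasi-likelihood test. These comparisons share the WT libraries, and the rises of npr-23, frpr-16 and npr-2 in UNC5 lost their call in several alternatives. The fall of frpr-16 in PATR1 held in 12 of 17. In UNC5 the rises of npr-12 and frpr-19 held in 14 and 15 of 17.

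Reads on the strand opposite to a receptor gene entered none of the fits to reverse-strand counts. The unstranded alternative held 253 reads for npr-14 and 724 for frpr-21 over all libraries. These genes had 454 and 757 reverse-strand and 4943 and 3269 opposite-strand reads, so most of the latter were absent there too. For 3 genes with at least 10 opposite-strand reads in each library of the mutant group, they were higher in every library of that group than in every WT library. The share of all genes with such a difference was not computed. For npr-23 they stood at 0.293 CPM in PATR1 and 0.160 CPM in WT. For npr-14, whose exons overlap nhr-85 on the opposite strand over 44.3% of their length, they stood at 13.9 CPM in UNC5, 12.6 CPM in WT and 7.10 CPM in PATR1. For frpr-21, whose exons overlap eif-2A over 7.16%, they stood at 7.17 CPM in UNC5 and 9.69 CPM in PATR1, against 5.71 CPM in WT. With fewer reads, those opposite to dmsr-1, npr-37 and dmsr-8 were also above WT in every UNC5 library, at 0.177, 0.114 and 0.133 CPM, from 25, 15 and 32 reads over all 9 libraries. The same held for dmsr-2, frpr-14, npr-3, npr-30 and npr-31, from 5 to 8 reads each. No group has the 4 libraries needed to test a single library against the others.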

How the results depend on the processing

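For UNC5 against WT the median of the receptor genes, 0.00, turned negative with library sizes alone (-0.052), relative log expression factors (-0.10), no filter (-0.16), only the 6 libraries compared (-0.15) and DESeq2 (-0.10), and ran from -0.032 (without WT replicate 1) to 0.022 when a library was left out. The median of all genes went from 0.16 to 0.11, 0.06, 0.00, 0.01 and 0.06 in the same 5 fits. The number higher, 13, was 4 with no filter, 6 with 6 libraries, 6 with DESeq2 and 10 to 14 without a library. The number lower, 14, was 24 with relative log expression factors, 28 with no filter, 29 with 6 libraries and 9 to 14 without a library. The number lower beyond 2-fold, 2, was 1 with the 1 CPM filter and 0 to 2 without a library. For PATR1 against WT the median, -0.42, was -0.47 with relative log expression factors, -0.54 with library sizes alone, -0.45 with no filter, -0.47 with DESeq2 and -0.47 to -0.39 without a library, and 11 genes rather than 7 were lower beyond 2-fold with library sizes alone. The number lower was 47 to 62 over all alternatives. For PATR1 against UNC5 the median, -0.47, was -0.42 with relative log expression factors, -0.54 with library sizes alone, -0.34 with no filter, -0.42 with DESeq2 and -0.50 to -0.44 without a library, and the number lower, 51, was 35 with no filter, 38 with DESeq2, 57 with library sizes alone and 46 to 52 without a library. The number lower beyond 2-fold, 2, was 1 with relative log expression factors, no filter, the 1 CPM filter or DESeq2, 5 with library sizes alone and 2 to 5 without a library, and the number higher, 2, was 1 with library sizes alone and 1 to 2 without a library. No receptor gene was higher beyond 2-fold in any comparison or alternative; at an unadjusted p below 0.05, 29, 59 and 54 receptor genes passed in the 3 comparisons in either direction. The replicate block gave 13 higher and 14 lower, 2 and 55, and 2 and 50, and among the named genes it changed only the PATR1 call of npr-17. Libraries with the same replicate number did not deviate together (r from -0.05 to 0.05, against -0.05 to 0.07 for different numbers), so the numbers were taken as names. The causes of these changes were not tested. Low counts limit the dmsr genes of the first cluster.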
